A study of Mus musculus with 2 samples.

Results

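The fibril-associated collagens are 9 of the 19465 genes measured: Col9a1, Col9a2 and Col9a3, which encode the 3 chains of type IX collagen, and Col12a1, Col14a1, Col16a1, Col19a1, Col20a1 and Col22a1, which each encode a collagen of a single chain type. They were taken by symbol from the deposited gene list, and all 9 were found there. The group was selected on measured values, since the large difference of Col9a2 between the sections was already known, so every contrast between the sections is given as a description. Its central question was whether Col9a2 in the transgenic heart lay where Col1a1, a gene of the fibrous matrix, was high or where Ankrd1 and Myh7, genes of stressed cardiomyocytes, were high.

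Fibril-associated collagens do not form banded fibrils of their own. Their triple helices are interrupted and lie along the surface of fibrils made of type I, II or III collagen, where they set fibril spacing and link fibrils to other matrix proteins. Type IX collagen, built from all of its chains together, is known from the type II fibrils of cartilage. Types XII and XIV are known from tendon, ligament and dense connective tissue, and type XXII from the junctions of muscle with tendon. In the heart most interstitial collagen is made by fibroblasts, whereas Ankrd1, Myh7 and Nppa are genes of cardiomyocytes that are known to be switched on under load or injury.

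Gene expression was measured with Visium CytAssist, in which probe pairs are hybridized to the transcripts of a formalin-fixed section and caught on a grid of spots with known barcodes, and each molecule is told apart by a unique molecular identifier (UMI). The genotypes were α-MHC-MerCreMer+/− for the control and α-MHC-MerCreMer+/−hTOP2B LSL/− for the heart called transgenic here, with 1 section of each. Both mice carried the tamoxifen-dependent Cre driven by the α-MHC promoter, which is active in cardiomyocytes, and both had received a single intraperitoneal dose of 80 mg/kg tamoxifen. The transgenic mouse in addition carried 1 copy of human TOP2B under the CAG promoter behind a loxP-flanked STOP cassette at Rosa26, so that only cells with active Cre can express it. The methods give 6 weeks as the age at dosing. The sex of these mice and the day on which these hearts were taken are not given in the sources used here. With 1 section per genotype, animal, section and genotype cannot be told apart, and no test was possible.

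The control section had 1256 spots over tissue and 14376300 UMIs and the transgenic section 924 spots and 12953389 UMIs, with a median of 11336 and 14531 UMIs per spot. Summed UMIs are given per 1000000 UMIs of the section (CPM), and values in parentheses after them are 95% intervals of counting error only. A spot can hold cells of several types, so more cells of a type and more RNA per cell cannot be told apart. Cardiomyocyte genes were abundant in both sections, and the 9 adult cardiomyocyte genes measured took 10.2% of control and 3.61% of transgenic UMIs. Genes of red blood cells took 0.215% and 2.04%. Mouse Top2b stood at 106 CPM in control and 102 CPM in transgenic tissue, and whether its probes bind the human transcript is not stated. The number and efficiency of probes differ between genes, so levels of different genes are not ranked here.

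Promoter windows of 300 bases, from 250 before to 50 after the annotated start, were held by the RefSeq tables for 5 of the 9 genes. Shown are those of Col9a2 and Col16a1, the members past the 2-fold difference for which a window was given, and the first of the 2 windows of Col9a1, the partner chain whose counts stayed at background. Coordinates are those of GRCm38.p6, all on the plus strand, and capitals mark the GC box GGGCGG or its reverse complement.
Col9a2, chr4:121039316-121039615: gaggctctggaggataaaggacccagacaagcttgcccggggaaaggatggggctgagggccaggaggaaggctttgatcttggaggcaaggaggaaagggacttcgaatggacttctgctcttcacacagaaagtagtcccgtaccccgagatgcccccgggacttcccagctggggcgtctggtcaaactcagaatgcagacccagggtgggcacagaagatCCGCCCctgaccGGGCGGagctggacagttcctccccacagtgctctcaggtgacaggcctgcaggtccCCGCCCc
Col16a1, chr4:130047590-130047889: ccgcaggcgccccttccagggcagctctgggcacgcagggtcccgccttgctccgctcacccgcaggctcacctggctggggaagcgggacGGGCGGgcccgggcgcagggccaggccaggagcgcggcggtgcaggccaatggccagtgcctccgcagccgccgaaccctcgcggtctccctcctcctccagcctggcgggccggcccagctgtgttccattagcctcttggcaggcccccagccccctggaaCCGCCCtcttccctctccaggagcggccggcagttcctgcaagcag
Col9a1, chr1:24177360-24177659: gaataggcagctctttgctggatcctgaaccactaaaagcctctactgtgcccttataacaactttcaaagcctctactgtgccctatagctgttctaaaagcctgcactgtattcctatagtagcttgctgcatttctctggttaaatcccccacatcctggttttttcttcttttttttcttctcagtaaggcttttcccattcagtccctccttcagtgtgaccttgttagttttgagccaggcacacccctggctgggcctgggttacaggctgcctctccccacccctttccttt
The Col9a2 window held 3 GC boxes and that of Col16a1 held 2. Both windows of Col9a1 held 0, as did those of Col19a1 and Col20a1, which are not shown. A GC box was present in 35.7% of all 32851 windows. The SOX letters ACAAAG, the TEAD letters GGAATG, the AP-1 letters TGANTCA and TATAAA were searched on both strands. They occurred in 18.7%, 14.7%, 7.81% and 13.6% of all windows. The windows of Col9a2, Col16a1, Col9a1 and Col19a1 held none of them, and that of Col20a1 held 1 SOX and 1 TEAD match. A match of letters is a description of the window and not a binding site.

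Of the type IX chains, Col9a2 alone was counted far above background in the transgenic section. It had 7 UMIs in the control section, or 0.487 CPM (0.196 to 1.00), and 653 in the transgenic section, or 50.4 CPM (46.6 to 54.4). Over the 4 quadrants of each section, split at the centre of the tissue, it lay at 0.266, 0.293, 0.555 and 0.833 CPM in control tissue. In transgenic tissue the quadrants lay at 30.5, 34.9, 62.2 and 74.5 CPM. Every transgenic quadrant was thus far above every control quadrant, and among the transgenic quadrants the highest was more than 2 times the lowest. The log2 ratio of transgenic over control was 6.69 (5.64 to 8.01). The 7 control UMIs lay inside the range of 19 genes that the heart is not known to use, such as those of pancreas and sperm, which had 4 to 18 UMIs each in the control section. The control level of Col9a2 could therefore not be told from background binding of probes, and the ratio is best read with its lower bound.

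Col9a1 had 5 UMIs in the control and 2 in the transgenic section, inside the range of the same background genes, which had 2 to 19 UMIs each in the transgenic section. Col9a3 was at 2.09 CPM in control tissue (1.41 to 2.98, 30 UMIs) and at 4.01 CPM in transgenic tissue (3.0 to 5.26, 52 UMIs). Its quadrants ran from 1.39 to 2.78 CPM and from 2.47 to 5.84 CPM, and the groups overlapped. The log2 ratio was 0.94 (0.27 to 1.64), just under a 2-fold difference. Col9a3 and Col9a2 UMIs shared 26 spots, which were 52% of the 50 spots with Col9a3 and 6.65% of the 391 spots with Col9a2, while Col9a2 was present in 42.3% of all transgenic spots. Of the 3 chains of the type IX trimer, Col9a2 had a far larger fold difference between the sections than Col9a3. Col9a1 had too few UMIs for a ratio.

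Col14a1, which encodes type XIV collagen, had the most UMIs of the 9 genes in both sections, with 244 in the control and 1047 in the transgenic section. Its CPM was 13.0, 13.8, 16.7 and 24.9 over the control quadrants and 58.2, 75.6, 87.6 and 103 over the transgenic quadrants, without overlap. The log2 ratio was 2.25 (2.05 to 2.46). Col16a1, whose type XVI product is found in fibroblasts and smooth muscle, had 124 and 825 UMIs. It lay at 7.03, 7.50, 9.05 and 10.8 CPM over the control and at 38.5, 55.7, 74.9 and 87.4 CPM over the transgenic quadrants, again without overlap. Its log2 ratio was 2.88 (2.61 to 3.17), above that of Col14a1, with intervals that did not overlap.

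Col12a1, the gene of type XII collagen, rested on few counts. It had 11 control and 84 transgenic UMIs, with 0.278 to 1.06 CPM over the control and 2.75 to 9.28 CPM over the transgenic quadrants, and a log2 ratio of 3.08 (2.17 to 4.14). Col22a1, the junctional collagen, had 14 control and 105 transgenic UMIs, with 0.586 to 1.11 CPM and 6.32 to 11.2 CPM over the quadrants and a log2 ratio of 3.06 (2.25 to 3.98). Neither overlapped between the sections, and both control counts lay inside the range of the background genes. Col20a1 had 20 and 26 UMIs and a log2 ratio of 0.53 (-0.37 to 1.45), with overlapping quadrants. Col19a1 had 5 and 1 UMIs, inside the background range in the control and below its lowest gene in the transgenic section.

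**Figure D1:**
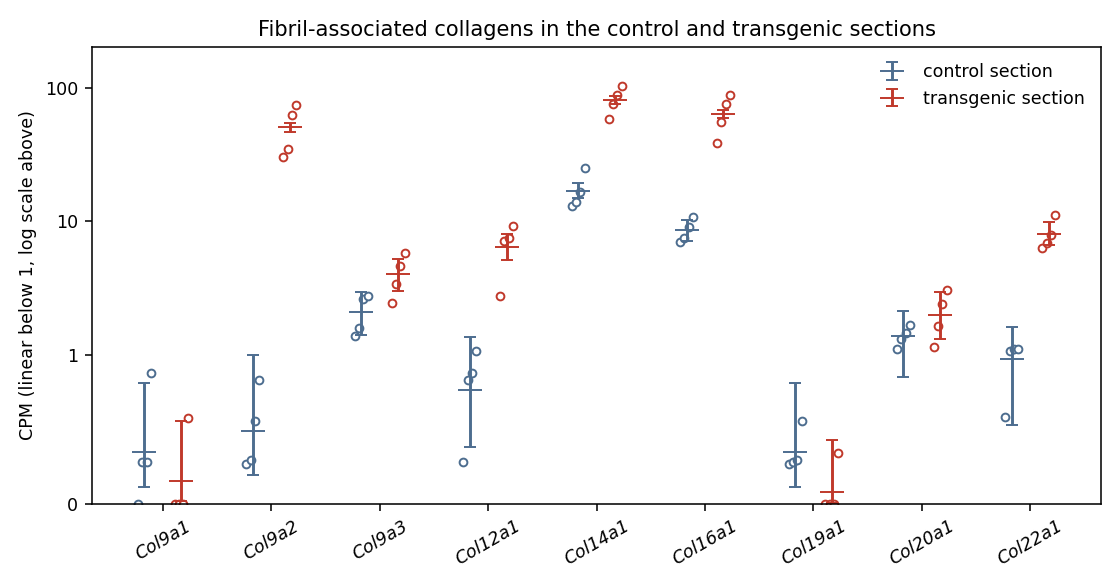
CPM of the 9 fibril-associated collagens (y axis, linear below 1 and log above) in the control and the transgenic section. Dashes are whole sections with 95% Poisson intervals and open circles are the 4 quadrants. Col9a2, Col12a1, Col14a1, Col16a1 and Col22a1 do not overlap between the sections, whereas Col9a1 and Col19a1 lie below 1 CPM in both.

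A minimum of 20 UMIs summed over the sections was met by 7 of the 9 genes. Of these 7 genes, 5 reached a 2-fold higher CPM in transgenic than in control tissue, as did 13.7% of all 15236 genes that met the minimum. The same 5 genes had every transgenic quadrant above every control quadrant, which held for 30.4% of all these genes. Since the members were chosen on this contrast, nothing is read from these counts. The median log2 ratio of the 7 genes was 2.88 and that of all 15236 genes 0.20. The remaining 2 genes, Col9a1 and Col19a1, had too few UMIs for a ratio.

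The fold differences of Col16a1 and, on few counts, Col12a1 and Col22a1 could not be told from that of Col1a1, the main chain of type I collagen. That of Col14a1 was somewhat smaller and that of Col9a2 far larger. Col1a1 had 2474 control and 14264 transgenic UMIs, and its log2 ratio was 2.68 (2.62 to 2.74). Per 1000 Col1a1 UMIs, Col16a1 had 50.1 UMIs in the control and 57.8 in the transgenic section, a ratio of 1.15 (0.954 to 1.41). The ratio was 1.32 (0.704 to 2.75) for Col12a1, 1.30 (0.742 to 2.46) for Col22a1 and 0.744 (0.647 to 0.859) for Col14a1. Of these, Col14a1 alone had an interval that left out 1, on the lower side. Col9a3 and Col20a1 fell behind Col1a1, at 0.301 (0.188 to 0.488) and 0.225 (0.121 to 0.426). Per UMI of the type III collagen gene Col3a1, these ratios differed. They were 1.84 (1.52 to 2.24) for Col16a1, 2.11 (1.12 to 4.39) for Col12a1 and 2.07 (1.18 to 3.92) for Col22a1. Col14a1 was at 1.19 (1.03 to 1.37), above 1, while Col9a3 and Col20a1 stayed below 1. The likeness in fold difference thus held against Col1a1 but not against Col3a1.

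Col9a2 had 2.83 UMIs per 1000 Col1a1 UMIs in the control and 45.8 in the transgenic section, 16.2-fold more (7.81 to 40.4). Against Col3a1, the chain of type III collagen, it was 25.8-fold more (12.4 to 64.4). Set against genes of activated fibroblasts, the excess was smaller, at 3.69-fold (1.78 to 9.23) per UMI of Postn, which encodes periostin. It was 1.72-fold (0.829 to 4.29) per UMI of Comp, which encodes the cartilage oligomeric matrix protein, and 1.39-fold (0.669 to 3.46) per UMI of Cthrc1. The intervals for Comp and Cthrc1 thus included equal fold differences. Against the cardiomyocyte genes it was 8.07-fold (3.89 to 20.2) per UMI of Ankrd1, which encodes a stretch-responsive repeat protein of the sarcomere, and 0.443-fold (0.214 to 1.11) per UMI of Myh7, the slow myosin heavy chain. Of the genes set against it here, Comp, Cthrc1 and Myh7 thus had intervals that included equal fold differences. Nppa and the activated fibroblast gene Ltbp2, at log2 ratios of 6.21 and 6.92, were also near Col9a2 but were not in this comparison. The fold difference alone therefore did not separate Col9a2 from either matrix or cardiomyocyte genes, and the pattern within the section was examined next. The intervals per UMI of another gene leave out the counting error of that gene and are too narrow where its counts are low. Cthrc1 had 8 control UMIs, inside the range of the background genes, and Comp had 63, so the ratio per Cthrc1 UMI sets 2 background-level control counts against each other.

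**Figure D2:**
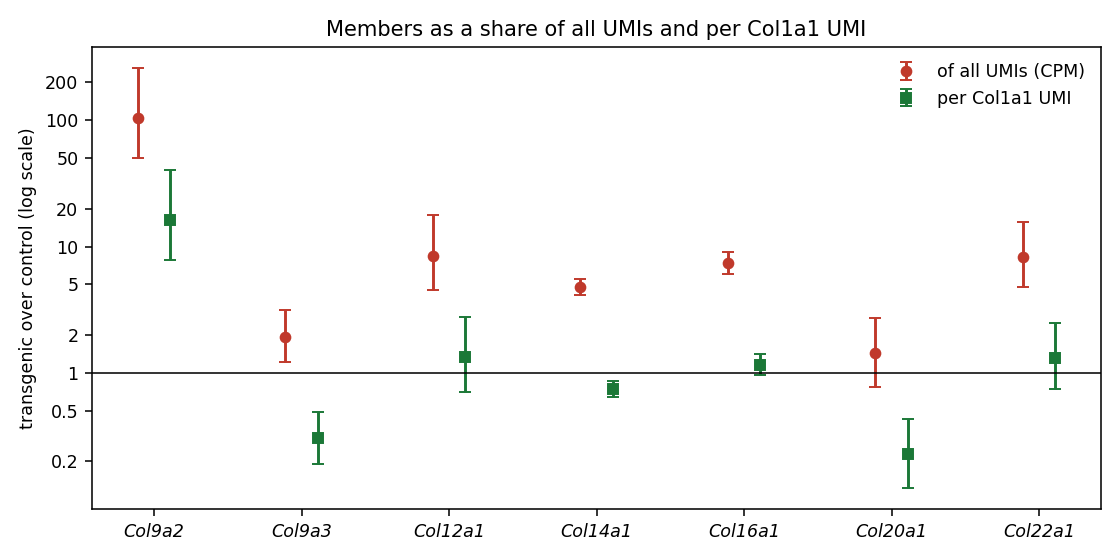
Transgenic over control (y axis, log scale) of the 7 members with at least 20 UMIs, as a share of all UMIs (circles) and per Col1a1 UMI (squares), with 95% intervals of counting error. Per Col1a1 UMI, Col12a1, Col16a1 and Col22a1 lie at 1 within their intervals, Col14a1 at 0.744, and Col9a2 at 16.2.

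Within the transgenic section Col9a2 was spread thinly over many spots. It was counted in 391 of 924 spots, or 42.3% (39.1 to 45.6), against 7 of 1256 control spots, or 0.557% (0.224 to 1.14). Of the transgenic spots 236 held 1 UMI, 88 held 2, 37 held 3, 21 held 4, 8 held 5 and 1 held 6, and 533 held 0, while no control spot held more than 1. After each spot was thinned to 8134 UMIs, which left out 78 transgenic and 140 control spots with fewer, the shares were 30.5% and 0.276%. Col14a1 was counted in 55.8% of transgenic and 16.1% of control spots (43.0% and 12.3% after thinning), and Col16a1 in 48.7% and 9.32% (36.1% and 6.08%). Col22a1 was counted in 10.6% and 1.11% of spots, Col12a1 in 8.12% and 0.796% and Col9a3 in 5.41% and 2.31%.

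An even spread over the transgenic section in proportion to depth would have placed Col9a2 in 49.5% of its spots, more than the 42.3% found. The deposited spatial score (Moran's I), which is higher the more alike neighbouring spots are, was 0.235 for Col9a2, 0.203 for Col16a1, 0.20 for Col14a1 and 0.070 for Col12a1 in the transgenic section. It was 0.009 for Col22a1 and 0.017 for Col9a3. In the control section it was 0.039 for Col14a1 and 0.004 for Col16a1. Spots at the tissue edge held 1.28 times the Col9a2 CPM of interior spots (1.08 to 1.51) and 1.20 times the Col14a1 CPM (1.05 to 1.37), but 0.556 times the Col12a1 CPM (0.295 to 0.982) in transgenic tissue. On the right of the median spot position, a split chosen after the maps were seen, Col9a2 was at 68.9 CPM and on the left at 32.4 CPM, a ratio of 2.12 (1.80 to 2.51). The same ratio was 1.65 (1.59 to 1.70) for Col1a1, 1.94 (1.93 to 1.96) for Nppa, 1.13 (1.12 to 1.14) for Ankrd1 and 1.03 (1.02 to 1.04) for Myh7, and it was 1.77 (1.53 to 2.05) for Col16a1 and 1.46 (1.29 to 1.65) for Col14a1.

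**Figure D3:**
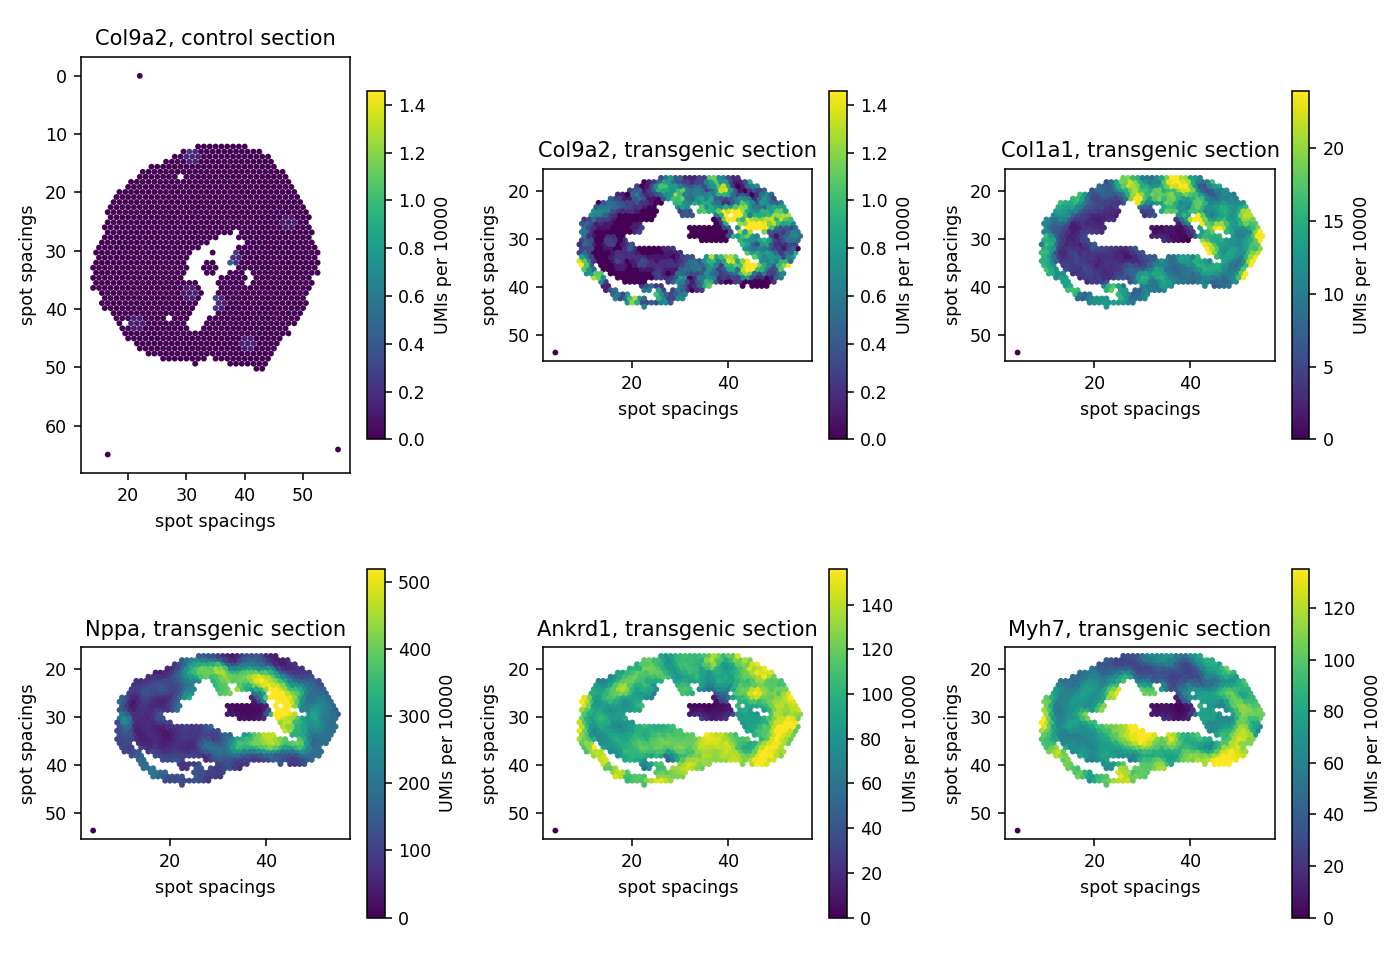
Maps of Col9a2 in the control section and of Col9a2, Col1a1, Nppa, Ankrd1 and Myh7 in the transgenic section. Each spot is coloured by UMIs per 10000 after summing it with its direct neighbours, axes are in spot spacings, and each colour scale ends at the 98th percentile of the transgenic spots. Col9a2, Col1a1 and Nppa are lower on the left of the median spot position than on its right (right over left 2.12, 1.65 and 1.94), whereas Myh7 is at 1.03. Left and right are those of the array and not of the heart.

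Col9a2 followed Col1a1 across the transgenic section and, taken over all spots, followed neither Ankrd1 nor Myh7. For this, the 921 transgenic spots with at least 1000 UMIs were ranked by the share of their UMIs that came from the other gene and split into 5 quintiles of nearly equal size. From the lowest to the highest quintile of Col1a1, Col9a2 was at 8.84, 25.3, 54.0, 72.8 and 84.0 CPM, higher at each step, and the top quintile had 9.50 times the bottom quintile (6.0 to 15.9). Over the quintiles of Ankrd1 it was at 51.0, 49.0, 46.4, 50.2 and 55.5 CPM, a ratio of 1.09 (0.845 to 1.40). Over those of Myh7 it was at 59.2, 42.2, 49.6, 60.3 and 40.8 CPM, a ratio of 0.690 (0.531 to 0.893), with no steady direction in between. When spots were ranked within each quadrant, the ratio for Col1a1 was 4.89 (3.48 to 7.03), for Ankrd1 0.936 (0.722 to 1.22) and for Myh7 0.804 (0.621 to 1.04), so that for Myh7 the interval then included 1. When spots were ranked by their neighbours alone, without their own UMIs, the ratio was 12.2 (7.34 to 21.6) for Col1a1, 1.48 (1.13 to 1.94) for Ankrd1 and 0.711 (0.548 to 0.922) for Myh7.

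The stress genes did not form a single pattern, and Col9a2 did follow Nppa, which encodes atrial natriuretic peptide. Over the quintiles of Nppa, Col9a2 was at 13.1, 34.5, 42.5, 65.7 and 86.6 CPM, and the ratio of 6.64 (4.51 to 10.1) came near that of Col1a1. Ranked within quadrants it was 5.54 (3.81 to 8.29), slightly above the value for Col1a1, with overlapping intervals. For Acta1, the skeletal actin of the stressed heart, the ratio was 1.57 (1.20 to 2.06). For Myh6, the adult fast myosin heavy chain, it was 0.265 (0.194 to 0.358), the opposite direction. Nppa and Col1a1 were themselves related, since Col1a1 in the top quintile of Nppa was 2.34 times that in the bottom quintile (2.20 to 2.48). Nppa and Acta1 did not follow Ankrd1 or Myh7 either. By Ankrd1 their ratios were 1.004 (0.992 to 1.02) and 0.972 (0.926 to 1.02). By Myh7 they were 0.702 (0.694 to 0.710) and 0.388 (0.370 to 0.407). Myh7 did follow Ankrd1, at 1.88 (1.84 to 1.92). The rankings by Ankrd1 and Myh7 therefore do not set Col9a2 apart from Nppa and Acta1.

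**Figure D4:**
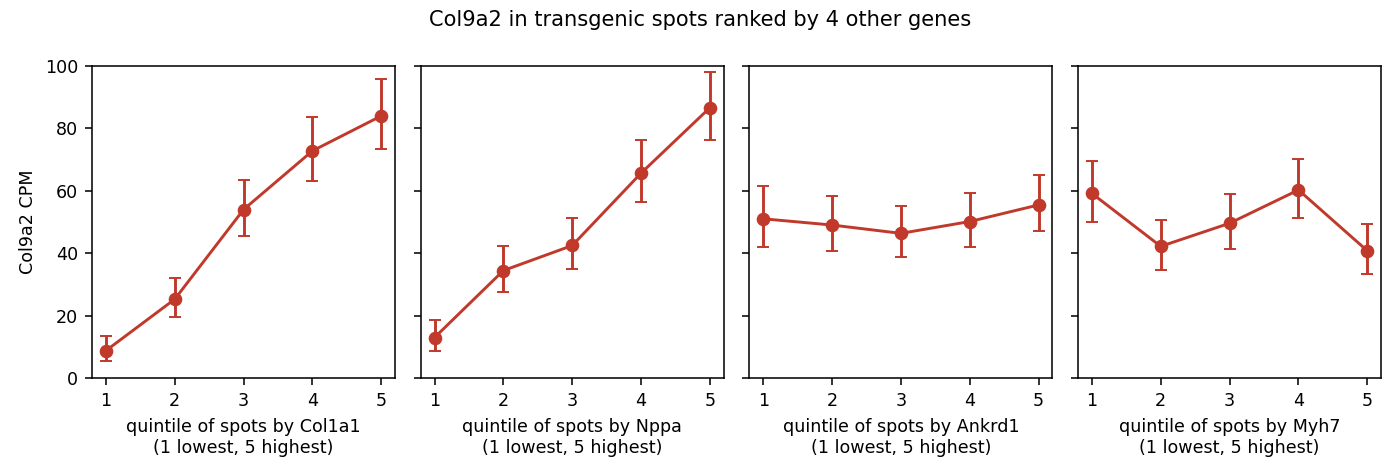
Col9a2 CPM (y axis, with 95% Poisson intervals) in quintiles of the 921 transgenic spots ranked by the UMI share of Col1a1, Nppa, Ankrd1 or Myh7 (x axis). It goes from 8.84 to 84.0 CPM over Col1a1 and from 13.1 to 86.6 over Nppa, and stays between 40.8 and 60.3 over Ankrd1 and Myh7.

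Ranking by Col1a1 and Ankrd1 together separated them further, but less clearly among spots poor in Col1a1. Within the low, middle and high tertiles of Ankrd1, Col9a2 in the top tertile of Col1a1 was 47.2 (12.8 to 394), 4.96 (3.19 to 8.03) and 2.95 (2.02 to 4.39) times that in the bottom tertile. The first of these ratios rests on 2 UMIs in its bottom tertile. In these bottom tertiles of Col1a1, Col9a2 was at 1.83 (0.221 to 6.61), 16.4 (10.5 to 24.5) and 24.9 (17.6 to 34.1) CPM, higher with higher Ankrd1. They were cut within each Ankrd1 tertile, so Col1a1 itself was not held at 1 level between them. With spots ranked by Col1a1 first, its low tertile gave 9.41 (4.51 to 17.3), 12.7 (7.53 to 20.1) and 19.4 (13.0 to 27.9) CPM over Ankrd1. Those intervals overlapped. Within the tertiles of Col1a1, the ratio of top over bottom tertile for Ankrd1 was 2.07 (0.979 to 4.75), 1.02 (0.748 to 1.40) and 0.851 (0.652 to 1.11), and every interval included 1. For Myh7 within the tertiles of Col1a1 it was 1.45 (0.735 to 2.96), 1.10 (0.783 to 1.54) and 0.849 (0.641 to 1.12). Nppa kept a relation to Col9a2 within the tertiles of Col1a1, with ratios of 3.78 (1.73 to 9.42), 1.84 (1.33 to 2.58) and 1.51 (1.15 to 1.98). Col1a1 in turn kept one within the tertiles of Nppa, with 6.64 (3.01 to 17.3), 3.54 (2.30 to 5.65) and 1.67 (1.28 to 2.20).

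Rank correlations over the 921 spots gave the same order, as descriptions of spots that share a library and neighbours. Spearman's rho of the UMI shares of Col9a2 was 0.44 with Col1a1, 0.41 with Col3a1, 0.39 with each of Postn, Comp and Nppa, and 0.31 with Cthrc1. It was 0.10 with Ankrd1, 0.01 with Myh7 and -0.29 with Myh6. Over the 4 quadrants taken singly rho with Col1a1 ran from 0.21 to 0.43, with Ankrd1 from -0.04 to 0.21, and with Myh7 from -0.25 to 0.21. In each of the 4 quadrants rho was higher with Col1a1 than with Ankrd1 or Myh7, whereas it was higher with Col1a1 than with Nppa in 3 of 4.

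Col14a1 and Col16a1 also followed Col1a1, as did Col12a1 and Col22a1 on far fewer counts. The top quintile by Col1a1 had 5.77 times the Col14a1 CPM of the bottom quintile (4.30 to 7.88), 4.55 times the Col16a1 CPM (3.35 to 6.28), 13.0 times the Col12a1 CPM (3.30 to 112) and 2.75 times the Col22a1 CPM (1.41 to 5.78). By Ankrd1 these ratios were 0.883, 0.968, 0.90 and 0.794, and each interval included 1. By Myh7 they were 0.746 (0.612 to 0.910) for Col14a1 and 0.541 (0.433 to 0.673) for Col16a1, both below 1. Col9a3 showed no ratio with an interval outside 1 for Col1a1, Nppa, Ankrd1 or Myh7.

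Nppa divided the members. By Nppa, the ratio was 6.64 for Col9a2, 5.74 (2.25 to 18.7) for Col12a1 and 3.68 (2.76 to 4.97) for Col16a1, but 2.21 (1.75 to 2.81) for Col14a1 and 0.858 (0.439 to 1.69) for Col22a1. The interval of Col14a1 lay below that of Col9a2 and just overlapped that of Col16a1 at its upper end. By the summed fibroblast markers the ratio was 3.89 (2.99 to 5.11) for Col14a1, 3.21 (2.46 to 4.23) for Col16a1 and 2.70 (2.02 to 3.65) for Col9a2. It was 2.51 (1.09 to 6.47) for Col12a1 and 1.42 (0.683 to 3.06) for Col22a1. These intervals overlapped, so the members are not ordered by it. By the summed macrophage markers the ratio was 3.11 (1.39 to 7.84) for Col22a1, 2.70 (2.12 to 3.45) for Col14a1 and 2.52 (1.94 to 3.29) for Col16a1. It was 2.38 (1.03 to 6.16) for Col12a1 and 2.10 (1.59 to 2.80) for Col9a2. These intervals overlapped as well, so the members are not ordered by macrophage markers either.

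**Figure D5:**
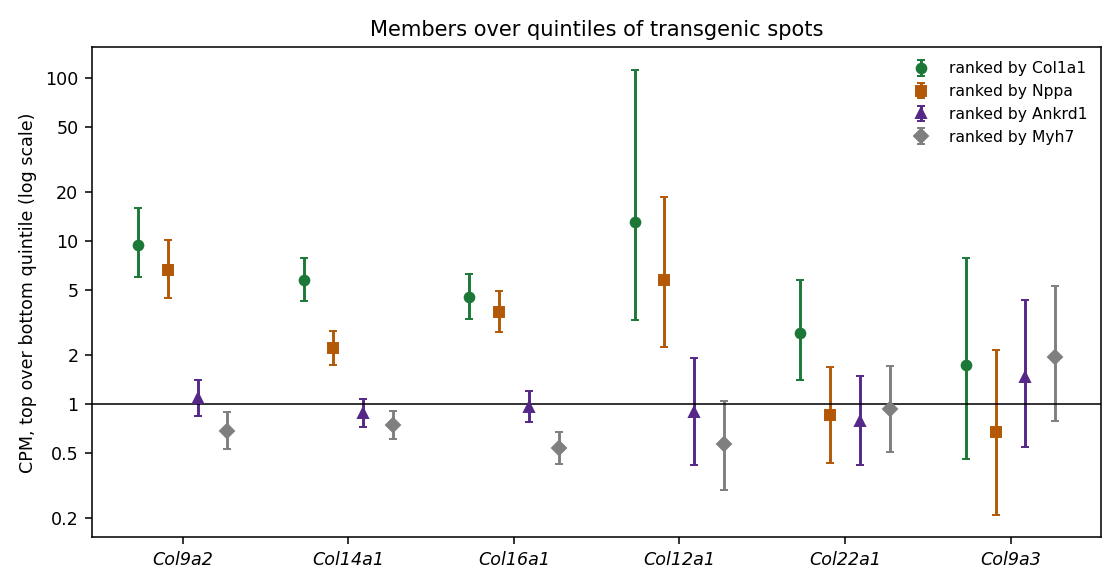
CPM of 6 members in the top quintile over the bottom quintile of transgenic spots (y axis, log scale), ranked by Col1a1, Nppa, Ankrd1 or Myh7, with 95% intervals of counting error. For Col9a2, Col14a1, Col16a1 and Col12a1 the values for Col1a1 and Nppa lie above 1 and those for Ankrd1 at 1 within the intervals, while the intervals of Col9a3 all include 1.

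Each spot was then summed with its direct neighbours, and all 7589 other genes with at least 200 transgenic UMIs were ordered by Pearson's r with Col9a2 over the spots. The 10 most alike were Fbln5, Col1a1, Col1a2, Bgn, Col5a2, Mfap4, Mgp, Ccn5, Col8a1 and Adamts2, with r from 0.74 to 0.69, where the median of all genes was 0.12. Fbln5 and Mfap4 encode proteins of elastic fibres, Bgn encodes the proteoglycan biglycan, Mgp encodes matrix Gla protein, and Adamts2 encodes the protease that removes the amino-terminal propeptide of fibrillar collagens. Col5a2 encodes a chain of type V collagen, which nucleates type I fibrils. Nppa was 33rd (r = 0.63), Ankrd1 1447th (0.25), Myh7 4385th (0.10) and Myh6 6792nd (-0.09). Among the members, Col16a1 was 31st (0.64) and Col14a1 50th (0.61).

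For Col14a1 the 5 genes most alike were Col1a2, Ccn5, Igfbp7, Col1a1 and Bgn, with r from 0.76 to 0.74. For Col16a1 they were Itgbl1, Ccn5, Serpina3n, Mfap4 and Clu, with r from 0.77 to 0.74, and Comp was 11th (0.74) and Col1a1 22nd (0.70). Ccn5, a matricellular gene of the CCN family, was thus on the list of all 3 members. These r values are across spots of 1 section that were smoothed over shared neighbours, and they describe likeness in place only.

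In the control section Col14a1 and Col16a1 alone had enough UMIs for such a profile. Over tertiles of the control spots by Col1a1, Col14a1 was at 12.5, 14.5 and 24.1 CPM, a ratio of 1.94 (1.41 to 2.69). Col16a1 was at 6.74, 7.99 and 11.2 CPM, a ratio of 1.67 (1.06 to 2.66). By Ankrd1 the ratios were 1.33 (0.973 to 1.84) and 0.882 (0.551 to 1.41), and by Myh7 1.17 (0.860 to 1.60) and 0.861 (0.543 to 1.36), each with an interval that included 1. Myh7 was counted in only 22.9% of control spots, so its low and middle tertiles held 0 Myh7 UMIs and were split by spot order. The control ratios by Myh7 can therefore show little, and nothing is read from them. Edge spots of the control section held 2.22 times the Col16a1 CPM of interior spots (1.45 to 3.35).

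The genes that make, cut and bind the fibrils were compared between the sections from lists of known members. Beside the list counts here and below, 13.7% of all 15236 genes with at least 20 UMIs were at least 2-fold higher. The share of all genes that were 2-fold lower was not computed, so nothing is read from the counts of lower genes. Of 11 fibrillar collagens, all with at least 20 UMIs, 8 were at least 2-fold higher and 0 were 2-fold lower, with a median log2 ratio of 1.79, from Col5a2 at 3.09 to Col24a1 at -0.71. Of 28 collagen processing enzymes 13 were 2-fold higher and 1 was 2-fold lower, with a median of 0.89. They ran from Lox, the lysyl oxidase that cross-links collagen, at 5.74, to the propeptide-cleaving protease Tll2 at -1.17. Tll2 had 20 and 8 UMIs, and its interval (-2.56 to 0.07) included 0. Of 13 proteins that sit on fibrils 10 were 2-fold higher and 0 lower, with a median of 2.43, from Comp at 5.91 to Tnxb at -0.17. Comp is known to bind type IX collagen in cartilage.

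Cartilage genes, the usual company of type IX collagen, differed unevenly. Of 22 such genes 17 had at least 20 UMIs, and of these 11 were 2-fold higher and 1 lower, with a median log2 ratio of 1.15. Among the 11, Col11a1 (8 and 16 UMIs) and Chad (10 and 19) lay inside the range of the background genes in both sections. Col2a1 and Col11a1 were among the genes also counted as fibrillar collagens. Comp and Postn, too, were each counted in more than 1 list here and below, so the list counts are not separate from each other. The highest was Comp, with 63 and 3422 UMIs, and the lowest Sox6, a transcription factor of chondrocytes and muscle, at -1.19. Col2a1, whose type II fibrils carry type IX collagen in cartilage, had 17 and 46 UMIs, and Acan, the aggrecan core protein, had 16 and 19. Sox9, the master transcription factor of cartilage, had 110 and 420 UMIs, and the matrilin gene Matn4 had 19 and 160. These 4 genes were named after their values were seen. Of these 4 genes, Acan stayed inside the range of the background genes and Col2a1 left it in transgenic tissue alone. Sox9 and Matn4 lay above it in both sections, Matn4 only just so in the control, with log2 ratios of 2.08 and 3.22.

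Of 9 tendon and junction genes 7 had at least 20 UMIs and 6 of these were 2-fold higher, with a median of 1.75. Thbs4 was the highest at 5.71 and Mkx the lowest at 0.49. Scx had 269 and 767 UMIs and Fmod 43 and 808. The genes below the minimum were Tnmd, with 4 and 3 UMIs, and Kera, with 11 and 3. Scx, Fmod, Tnmd and Kera were named after their values were seen.

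Markers of several cell types differed between the sections along with the members, and their part in the members' differences was not tested. All 10 fibroblast markers had at least 20 UMIs, and 5 of them were 2-fold higher and 0 lower. Their sum was 0.145% of control and 0.215% of transgenic UMIs. Mfap5 was the highest at 2.31 and Scara5 the lowest at -0.88. Of 12 genes of activated fibroblasts 11 were 2-fold higher, with a median of 4.81, from Ltbp2 at 6.92 to Acta2 at 0.50, and their sum was 0.051% and 0.464%. Macrophage markers summed to 0.0295% and 0.057%, with 3 of 8 genes 2-fold higher, from Csf1r at 1.11 to Lyz2 at -0.20. Endothelial markers summed to 0.0853% and 0.0867%, and smooth muscle markers without Des, which cardiomyocytes also express, to 0.0752% and 0.0731%. Of the endothelial genes 1 of 8 was 2-fold higher (Vwf at 2.48, Kdr the lowest at -0.92), and of the 8 smooth muscle genes Cnn1 (2.74) and Des (1.52) were, with Smtn the lowest at -0.95. Epicardial markers had 3 of 7 genes 2-fold higher, from Krt8 at 2.78 to Upk3b at -0.37, and nerve sheath markers 1 of 6, with Ngfr the highest at 1.65. All 5 erythroid genes were 2-fold higher, from Slc4a1 at 5.06 to Alas2 at 3.08.

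Of 8 cardiomyocyte stress genes with at least 20 UMIs 7 were 2-fold higher, with a median of 3.12, from Myh7 at 7.87 to Csrp3 at 0.16, and of 9 adult cardiomyocyte genes 8 were 2-fold lower, from Tnni3 at -1.92 to Ryr2 at -0.50. Within the transgenic section, Col9a2 in the top quintile by summed genes was 11.1 times that in the bottom quintile for activated fibroblast genes (6.82 to 19.5) and 4.75 times for the stress genes together (3.36 to 6.88), of whose UMIs Nppa gave 38.2%. Of the 60069 transgenic UMIs of the activated fibroblast genes, Ccn2 gave 29509, so that each sum leaned on 1 gene. Col9a2 was 0.698 times for endothelial (0.526 to 0.925), 0.758 times for erythroid (0.586 to 0.975) and 0.134 times for adult cardiomyocyte genes (0.0868 to 0.20). Among the 50% of each section's spots poorest in erythroid genes, the log2 ratio of Col9a2 between the sections was 6.43 and its ratio over the quintiles of Col1a1 was 6.42 (3.89 to 11.2).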

How the data were processed

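Space Ranger 2.0.0, per the file headers, made the deposited UMI counts, which are raw counts per gene and spot over tissue. The labels name GRCm39 and bcl2fastq. The probe set is not stated. Moran's I, deposited as a score per gene, was used as given. UMIs were summed per section. Intervals at 95% were exact Poisson for sums, exact conditional binomial for ratios and Clopper–Pearson for shares, and cover counting error only. For ratios per UMI of another gene, the UMIs of that gene were taken as fixed. A count of 0 allows up to 3 counts, or 0.209 CPM in control and 0.232 CPM in transgenic tissue. The sections shared 725 spot barcodes, which come from the same array design and name positions. The intervals and quintiles were tried on independent counts drawn from known shares. Variation between animals and likeness of neighbouring spots were not simulated, so this checks the calculation alone. The members, lists and alternatives were chosen with earlier results of these data known. Named genes are the members, Col1a1, Ankrd1, Myh7, 7 comparison genes, the highest and lowest of each list (some not reported here), and the 10 genes most like Col9a2 and 5 most like Col14a1 and Col16a1. Top2b was added as the mouse counterpart of the transgene. Col2a1, Acan, Sox9, Matn4, Col11a1, Chad, Tnmd, Scx, Fmod, Kera and Ccn2 were added after their values were seen. Likeness used log2(UMIs per 10000 + 1). Genes not used by the heart served as background, and of these 7 had at least 20 UMIs, 1 of them 2-fold higher, with a median log2 ratio of -0.11, and with Amelx the highest at 1.23. Python 3.11.15, numpy 2.4.6, scipy 1.17.1, pandas 2.3.3, R 4.3.3, edgeR 4.0.16 and DESeq2 1.42.0 were used, the last 2 for scaling factors alone.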

Additional observations from a re-analysis of the deposited data

How the results depend on the processing

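The log2 ratio of Col9a2 was 5.11 with 1 CPM added to both sections, outside its interval, and lay between 6.43 and 6.85 with TMM factors, DESeq2 size factors (1 in both sections), totals without the 50 most abundant genes, interior spots, spots of at least 1000 UMIs, the 50% of spots poorest in erythroid genes and the mean over spots. TMM factors moved the median log2 ratio of all genes from 0.20 to 0.05 and DESeq2 size factors also to 0.05. Of 64 values for the other members under these settings, 61 stayed inside the main interval and 0 were called and changed sign. The number of members at least 2-fold higher was 3 with a minimum of 200 UMIs, 7 in the 50% of spots poorest in erythroid genes, where Col9a3 and Col20a1 were at 1.31 and 1.19, and 5 otherwise. The minimum of UMIs was applied to whole-section counts also where only part of the spots was used. The share of all genes was not computed under these settings, so nothing is read from these counts. The share of transgenic spots with Col9a2 was 30.5% after thinning and 16.8% when 2 UMIs were required. The ratio over quintiles by Col1a1 was 4.89 when ranked within quadrants, and that by Ankrd1 was 1.48 when ranked by neighbours. For Myh7 the interval included 1 among interior spots (0.754), among spots poorest in erythroid genes (0.869) and within quadrants (0.804). The ratio by Nppa, an alternative chosen after its profile was seen, was 10.5 (5.82 to 20.7) among interior spots. The rank correlation of Col9a2 with Col1a1 was 0.77 and with Ankrd1 0.22 when spots were summed with their neighbours, and that with Col1a1 was 0.32 after thinning. With 1 section per group no value has a replicate check, and low counts limit Col9a1, Col19a1, Col20a1 and Col9a3 most. No paired analysis was possible because each group has 1 section.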
